A study of Mus musculus with 48 samples.

Results

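Aoah, Ntn1, Slc7a3 and Socs2 are 4 of the 54752 genes counted, and they were chosen by their falls in newly made RNA after loss of OCT4, the POU transcription factor that pluripotent cells depend on. The choice used the doxycycline against water contrasts of OCT4-tetOff cells at 16 and 24 h, so the members' values in those contrasts are given as a description, with no test. Their values after loss of FOXD3, a forkhead factor of the same cells, come from other libraries and were tested. All 4 symbols were found in each of the 3 count tables.

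The samples were mouse embryonic stem cells grown in L2i medium, in which RNA was labelled with 4-thiouridine (4SU), a uridine analogue that cells build into RNA as it is transcribed. The 48 libraries formed 24 groups of 2. Cycling OCT4-tetOff cells, whose OCT4 is switched off by doxycycline, received doxycycline or water for 16 or 24 h (8 libraries, 30 min of 4SU). Cycling FOXD3-iKO cells, an inducible knockout, received 4-hydroxytamoxifen (4HT) or its solvent ethanol for 8, 14, 24 or 32 h (16 libraries, 30 min of 4SU). FOXD3-iKO cells synchronized by a double thymidine block were released 24 h after 4HT or ethanol and collected 0, 1, 2, 3, 4 or 5 h later (24 libraries, 15 min of 4SU). The labels name no clone, no promoter of the Cre or of the OCT4 transgene and no separate cultures. The p-values therefore reflect only how far the 2 libraries of a group spread, estimated over all groups fitted together. That spread may be technical. A cycling FOXD3-iKO library held 21827951 to 30406124 counts, an OCT4-tetOff library 21113158 to 26112435 and a synchronized library 7953841 to 17936504, and 2 genes that collect ribosomal RNA reads took between 3.41 and 43% of a library. Pou5f1, which encodes OCT4, had log2 differences of -1.50 ± 0.13 and -1.83 ± 0.13 after 16 and 24 h of doxycycline, and Foxd3 was lower in every 4HT than in every ethanol library at each time and, in synchronized cells, over all times. Of the 22 genes of the core and naive pluripotency list, 21 were above 3 counts in every arm, the exception being Sox2.

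The 4 genes have unrelated products. Netrin-1, the product of Ntn1, is a secreted guidance cue whose receptors include DCC, neogenin and the UNC5 family. Slc7a3 encodes CAT3, a transporter that carries arginine, lysine and ornithine into cells, and it belongs to the same family as Slc7a1 and Slc7a2. SOCS2 is an inhibitor in cytokine signalling, a feedback regulator best known for restraining the growth hormone receptor. That receptor and the LIF pathway that maintains mouse stem cells both signal through proteins of the JAK and STAT families. Aoah encodes acyloxyacyl hydrolase, an enzyme known from phagocytes that removes fatty acyl chains from bacterial lipopolysaccharide.

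The genes also differ in size and position. Aoah (ENSMUSG00000021322.8) spans 243 kb of the plus strand of chromosome 13, from 20794113 to 21036617 in mm10. Ntn1 (ENSMUSG00000020902.12) spans 191 kb of the minus strand of chromosome 11, from 68209364 to 68400823. Slc7a3 (ENSMUSG00000031297.14) is short, 6.81 kb on the minus strand of chromosome X from 101079210 to 101086020, and Socs2 (ENSMUSG00000020027.18) spans 31.8 kb on the minus strand of chromosome 10 from 95385362 to 95417180. The counts cover the whole gene interval with its introns.

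The promoter of Aoah is shown because this gene had the largest fall of all and was the 1 of the 4 matched in the RefSeq promoter sequences used here. It is the 250 bases upstream of the start, chr13:20793863-20794112 on the plus strand of GRCm38.p6, and the capitals mark the letters CCGGAAGT, the core bound by ETS family factors, which begin 19 bases before the start.
Aoah: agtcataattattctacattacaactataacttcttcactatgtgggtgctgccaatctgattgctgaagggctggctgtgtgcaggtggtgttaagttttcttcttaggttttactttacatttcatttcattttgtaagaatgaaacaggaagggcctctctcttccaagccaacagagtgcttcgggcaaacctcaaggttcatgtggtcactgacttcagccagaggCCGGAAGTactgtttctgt
The window is 42.8% G and C, against a median of 52.4% over 32851 such windows. CCGGAAGT, searched on both strands, occurred in 2.88% of them. CCAAT also matched once, 198 bases before the start, as it did somewhere in 33.8% of windows. The octamer ATGCAAAT (1.6% of windows), the SOX core ACAATG (10.7%), the forkhead core GTAAACA (3.17%), the STAT letters TTCNNNGAA (7.02%), TATAAA (12.4%) and CACGTG (6.02%) were not among these 250 bases. No listed motif overlapped another, and a match of letters is a description, not a binding site.

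After OCT4 loss, newly made RNA of all 4 genes was low at 16 h and, for Aoah, Slc7a3 and Socs2, lower still at 24 h. Values are CPM, the usual counts scaled to library size, here with TMM factors. Aoah stood at 46.6 and 46.8 CPM in the water libraries at 16 h and at 1.09 and 1.21 CPM in the doxycycline libraries. At 24 h it stood at 47.7 and 50.1 CPM with water and at 0.583 and 0.516 CPM with doxycycline, which rest on 17 and 14 counts. The water libraries sat far above the doxycycline libraries at both times, and what was left of Aoah was 2.46% of the water mean at 16 h and 1.12% at 24 h. These are log2 differences of -5.33 ± 0.13 (SE) and -6.46 ± 0.14, or 40.3-fold and 88-fold lower.

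Slc7a3 was the next most reduced. It was at 33.1 and 33.9 CPM with water and 2.27 and 3.36 CPM with doxycycline at 16 h, a log2 difference of -3.57 ± 0.18. At 24 h the values were 30.4 and 24.4 CPM with water and 1.3 and 1.51 CPM with doxycycline, a difference of -4.28 ± 0.20. The transporter's RNA was thus 11.9-fold lower at 16 h and 19.4-fold lower at 24 h, with no overlap between arms.

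Ntn1 was the most abundant of the 4 in these cells per library, and its fall at 16 h was close to that at 24 h. Its water libraries held 251 and 242 CPM at 16 h, and its doxycycline libraries 25.6 and 23.9 CPM. At 24 h they held 251 and 358 CPM against 23.8 and 31.1 CPM. The log2 differences were -3.32 ± 0.19 and -3.47 ± 0.19, so Ntn1 at 16 h had 95.7% of its 24 h change on the log2 scale. The 24 h difference was -3.7 without the first water replicate and -3.19 without the second, so that share is loose.

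Socs2 showed the smallest fall. It went from 39.3 and 39.4 CPM with water to 10.2 and 10.5 CPM with doxycycline at 16 h, and from 38.6 and 37.5 to 6.38 and 5.57 CPM at 24 h. The log2 differences were -1.93 ± 0.10 and -2.67 ± 0.10, so that 72.3% of the 24 h change was present at 16 h, against 82.6% for Aoah, 83.4% for Slc7a3 and 81.9% for Pou5f1 itself. The plot of levels in OCT4-tetOff cells shows the arms apart in all 4 genes.

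**Figure D1:**
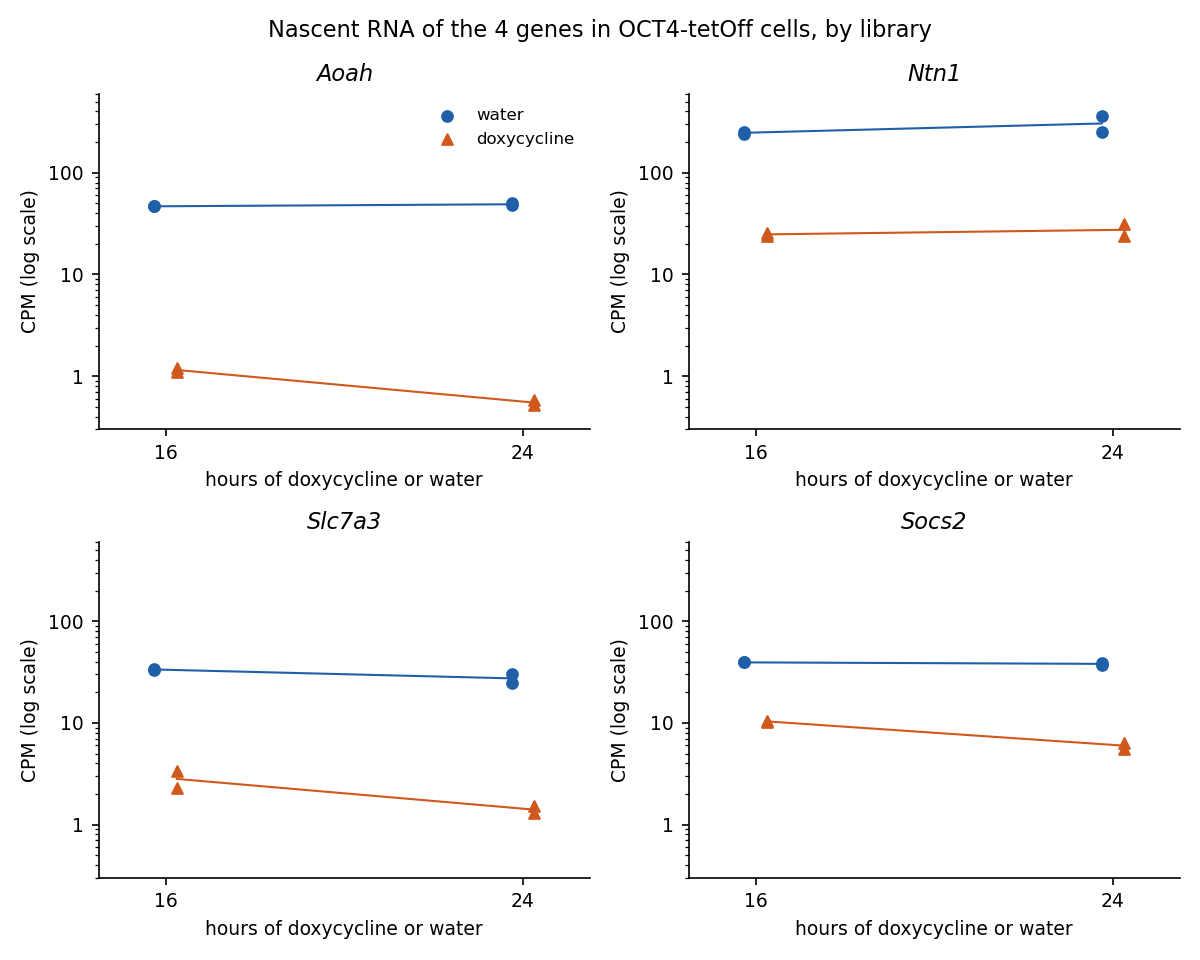
CPM (log scale) of the 4 genes in each OCT4-tetOff library against hours of water (circles) or doxycycline (triangles), with lines through the group means of 2 libraries. Every doxycycline library lies below every water library, and Aoah lies at 46.6 to 50.1 CPM with water and at 1.21 CPM or less with doxycycline.

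By size of fall, 3 of the 4 genes stood near the top of all genes and Socs2 did not, so the set is not the 4 largest falls. Among 11689 genes that averaged 1 or more in log2 CPM and carry a settled symbol, Aoah ranked 1 at 16 h, Slc7a3 ranked 9 and Ntn1 ranked 11, but Socs2 ranked 89. Ranks 2 to 5 went to Hcrtr2, an orexin receptor (-4.54 ± 0.35), Pou2f3, a POU factor (-4.41 ± 0.28), Pla2g4e, a phospholipase (-4.37 ± 0.16), and Pde4b, a cyclic AMP phosphodiesterase (-4.08 ± 0.35). At 24 h the ranks were 1 for Aoah, 10 for Slc7a3, 22 for Ntn1 and 62 for Socs2. Over all genes tested, 8.91% were called lower and 7.94% higher at 16 h, and 18.7% lower and 18.1% higher at 24 h (edgeR, adjusted p under 0.05). All 4 members were among those lower at both times, as the choice required. In all, 2986 genes were called at 16 h, and 1327 to 1429 when any 1 library of that time was left out. At 24 h 6531 were called, and 3969 without the first water replicate. With total counts as the only scaling, 70.1% of the called genes at 16 h were higher, in place of 47.1%, and the median of all genes moved from -0.002 to 0.154 on the log2 scale. The members' differences then ranged from -5.18 for Aoah to -1.77 for Socs2. Fewer transcribing cells and less RNA per cell cannot be told apart in such bulk libraries.

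Per kb of gene, the order of levels in water-treated cells at 16 h was Slc7a3 (4.92 ± 0.0849 CPM per kb, SD, n = 2), Ntn1 (1.28 ± 0.0354), Socs2 (1.24 ± 0) and Aoah (0.192 ± 0.000707). Ntn1 (1.31 and 1.26 CPM per kb) lay just above Socs2 (1.24 in both libraries). In ethanol-treated cycling FOXD3-iKO cells at 24 h the order was Slc7a3 (4.81 ± 0.134), Socs2 (1.76 ± 0.0495), Ntn1 (0.539 ± 0.00566) and Aoah (0.361 ± 0.017). The 2 lines, which were scaled together for this purpose, had unlike baselines: Aoah at 24 h was at 52.8 ± 2.76 CPM in OCT4-tetOff cells with water and 90.4 ± 3.54 CPM in FOXD3-iKO cells with ethanol, while Ntn1 was at 328 ± 87 and 106 ± 2.12 CPM. Line, solvent and experiment cannot be told apart in that pair of values.

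FOXD3 loss did not bring these genes down together. In cycling cells at 32 h, Ntn1 and Slc7a3 were lower and Aoah higher with 4HT than with ethanol, while Socs2 did not pass the test. No member was called at 8 or 14 h, when 0.0107% and 0.016% of 18707 genes were called in either direction. The targeted gene Foxd3 was itself not called then (-1.33 ± 0.24 and -1.49 ± 0.25, edgeR adjusted p = 0.39 and 0.14). A missing call at those times is therefore not read as a lack of response. No member was called at 24 h, when 0.401% of genes were called higher and 0.0802% lower. At 32 h, 1 member was called among the 4.88% of genes called higher and 2 among the 4.59% called lower. These shares moved with single libraries: 1771 genes were called at 32 h, 4370 without the first ethanol replicate and 597 without the second 4HT replicate. With total counts as the only scaling 86.7% of the calls were higher, in place of 51.6%, and the median of all genes went from -0.05 to 0.12.

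Ntn1 was at 173 and 114 CPM with ethanol and at 75.3 and 73 CPM with 4HT at 32 h. The ethanol libraries were both higher, the first by more. Over 8, 14, 24 and 32 h the ethanol means of Ntn1 were 86.2, 61.9, 103 and 144 CPM. The 4HT means were 67.3, 56.8, 64.8 and 74.2 CPM, so the 4HT level itself was not lower at 32 h than before. The log2 change was -0.96 ± 0.17 (edgeR adjusted p = 0.0035), and it was -0.62 without the first ethanol replicate (adjusted p = 0.0058). When only the compared groups were fitted, neither Ntn1 (-0.88, adjusted p = 0.12) nor Slc7a3 (-0.64, 0.18) nor Aoah (0.77, 0.25) was called at 32 h. At 24 h, Ntn1 stood at 102 and 104 CPM with ethanol and 67.7 and 62 CPM with 4HT, a log2 difference of -0.67 ± 0.17 that did not pass the test (edgeR adjusted p = 0.14). DESeq2 called that difference (adjusted p = 0.049).

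Slc7a3 was at 33.6 and 44 CPM with ethanol and at 25.3 and 22.3 CPM with 4HT at 32 h, without overlap. The transporter fell by 0.70 ± 0.15 on the log2 scale (edgeR adjusted p = 0.01). Without the second ethanol replicate the difference was -0.5 (adjusted p = 0.059), and without the second 4HT replicate -0.61 (adjusted p = 0.12). At 24 h it was at 33.5 and 32.2 CPM with ethanol and 27.1 and 30.1 CPM with 4HT, a difference of -0.20 ± 0.15 (adjusted p = 0.86).

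Aoah moved the other way. Its ethanol libraries at 32 h held 147 and 83.7 CPM and its 4HT libraries 185 and 190 CPM, so both 4HT libraries were higher and the ethanol pair was far apart. The rise was 0.70 ± 0.19 on the log2 scale (edgeR adjusted p = 0.034). It was 1.16 without the first ethanol replicate (adjusted p = 3.8e-05), 0.35 without the second (adjusted p = 0.1), 0.71 without the first 4HT replicate (adjusted p = 0.13) and 0.68 without the second (adjusted p = 0.16). In the first ethanol library, ribosomal RNA genes took 14.3% of counts, close to the 13.9 and 12.5% of the 4HT libraries, and in the second they took 28%; the part of this in the result was not tested. At 24 h Aoah was at 90.3 and 84.5 CPM with ethanol and 110 and 91.9 CPM with 4HT, a difference of 0.21 ± 0.19 (adjusted p = 0.9).

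Socs2 was higher in both 4HT libraries than in both ethanol libraries at each of the 4 times, by small amounts. The pairs were 57.6 and 60.5 against 51.9 and 48.6 CPM at 8 h, 58 and 63.8 against 50.7 and 50.1 CPM at 14 h, 62.1 and 63.7 against 57.2 and 55.2 CPM at 24 h, and 79 and 88.5 against 78.5 and 66.8 CPM at 32 h. The log2 differences were 0.23 ± 0.10, 0.27 ± 0.09, 0.16 ± 0.09 and 0.21 ± 0.09, and none passed the test over all genes (edgeR adjusted p of 0.2 at 32 h). Without the first ethanol replicate the 32 h difference was 0.32 (adjusted p = 0.026).

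**Figure D2:**
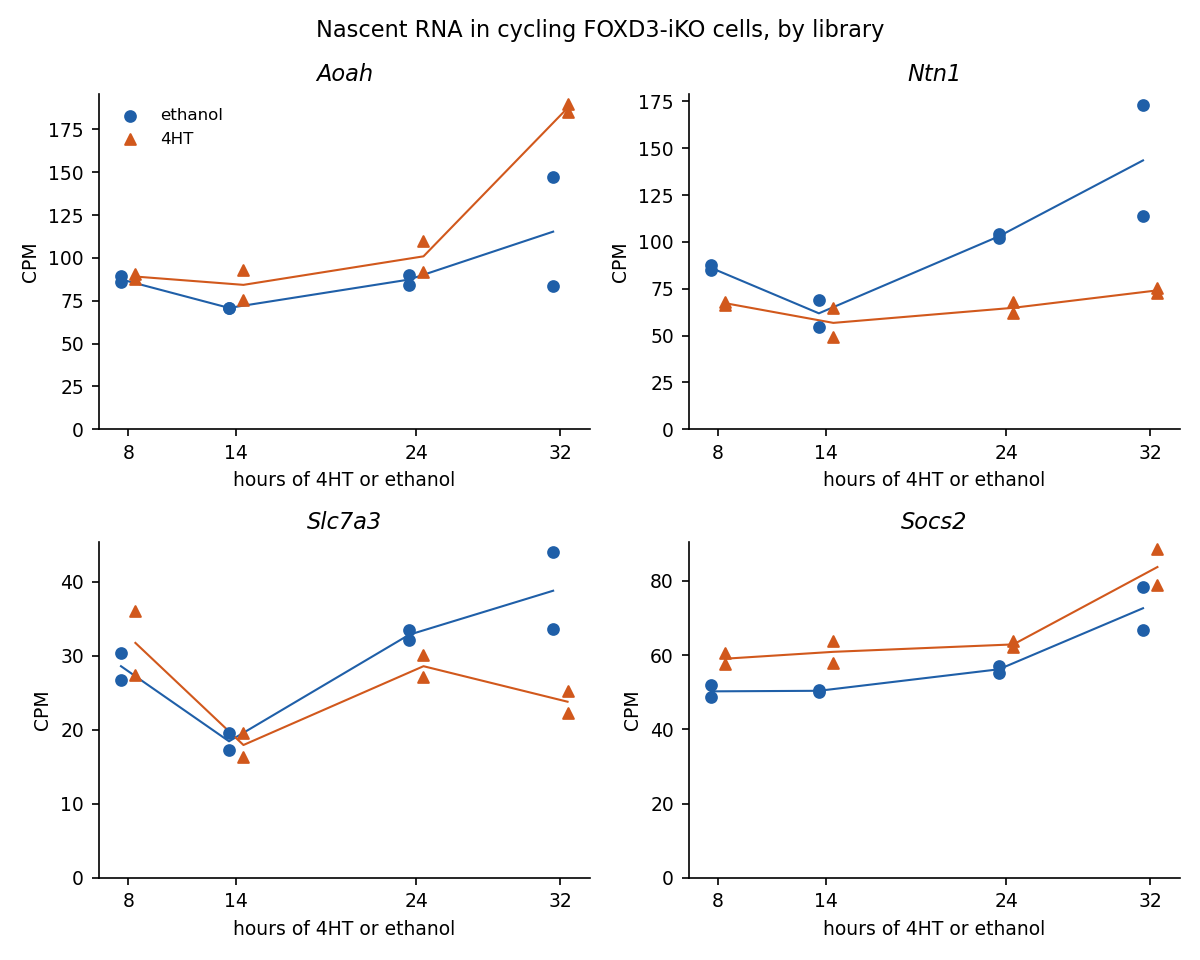
CPM of the 4 genes in each cycling FOXD3-iKO library against hours of ethanol (circles) or 4HT (triangles), with lines through the means of 2 libraries. At 32 h Ntn1 and Slc7a3 lie lower and Aoah higher with 4HT, and the ethanol libraries of Aoah lie apart at 147 and 83.7 CPM.

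The growth of the response from 24 to 32 h was tested as a difference of differences. It was 0.49 ± 0.27 for Aoah, -0.28 ± 0.24 for Ntn1, -0.51 ± 0.21 for Slc7a3 and 0.04 ± 0.13 for Socs2, and none was called (edgeR adjusted p from 0.63 to 0.99). The background was 0% of genes called, with 1395 of 18707 at an unadjusted p under 0.05 and 12 called by DESeq2. Without the first ethanol replicate at 32 h, Aoah was called (0.96, adjusted p = 0.014) and 681 genes were called in all.

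In synchronized cells, Socs2 gave the clearest response to FOXD3 loss. Its 12 ethanol libraries ran from 65.2 to 77 CPM with a median of 72.4, and its 12 4HT libraries from 99.8 to 116 CPM with a median of 108. Every 4HT library was above every ethanol library. Socs2 rose by 0.60 ± 0.03 on the log2 scale over the 6 release times (edgeR adjusted p = 4.4e-11), and the ratio of means at single times lay between 1.46 and 1.55. The size depended on scaling, with 0.39 for total counts alone (adjusted p = 9.9e-05). In the same libraries the summed primitive endoderm markers ran from 208 to 281 CPM with ethanol and from 286 to 403 CPM with 4HT, without overlap, and 4 of 7 tested rose and 1 fell. Trophectoderm markers summed to 192 to 260 CPM with ethanol and 236 to 334 CPM with 4HT, and 3 of 9 tested rose and 1 fell. With total counts alone, 3 primitive endoderm markers rose and 2 fell, and 1 trophectoderm marker rose and 2 fell. Over all genes, 18.6% were called higher and 18.4% lower with TMM factors. The part of these markers in the members' responses was not tested.

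Ntn1 was lower with 4HT than with ethanol in synchronized cells too, by a small amount. Ethanol libraries ran from 224 to 388 CPM with a median of 275, and 4HT libraries from 205 to 290 CPM with a median of 232, so the arms overlapped and 1 of 12 4HT libraries was above the ethanol median. The fall was 0.27 ± 0.08 (edgeR adjusted p = 0.0077). Of the 4 members, then, 1 was called among the 18.6% of genes called higher and 1 among the 18.4% called lower. With total counts alone 9.7% of called genes were higher, in place of 50.3%, and the median of all genes was -0.213 in place of -0.006.

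Slc7a3 did not pass the test in synchronized cells, where it was lower in level. Its ethanol libraries ran from 10.7 to 21.5 CPM (median 14.8) and its 4HT libraries from 11.6 to 15.9 CPM (median 13.9), a difference of -0.07 ± 0.08 (edgeR adjusted p = 0.53). Scaling by total counts alone gave -0.26 (adjusted p = 0.004), and removing the trend with gene length gave 0.07 (adjusted p = 0.56). Aoah varied most among replicates: ethanol libraries ran from 73.8 to 346 CPM (median 218) and 4HT libraries from 137 to 426 CPM (median 289). Its difference was 0.42 ± 0.18 (edgeR adjusted p = 0.07), with 9 of 12 4HT libraries above the ethanol median. DESeq2 called it (0.44, adjusted p = 0.041).

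By release time, Aoah was lower with 4HT at 0 h (137 and 185 CPM against 212 and 254). Both 4HT libraries were higher at 1 h (197 and 224 against 115 and 182), and the arms overlapped at 2 h (223 and 282 against 174 and 242). Aoah was also higher with 4HT at 3 h (296 and 339 against 73.8 and 223), 4 h (388 and 382 against 162 and 346) and 5 h (311 and 426 against 259 and 235). The ethanol replicates at 3 and 4 h lay far apart. The test for responses that differ between release times called no member, with an adjusted p of 0.76 for Aoah and of 1 for Socs2. That test called 0% of 17739 genes, with 882 at an unadjusted p under 0.05 and none called by DESeq2. Release itself, tested in ethanol cells at 1 to 5 h against 0 h, called 19.4% of genes and no member (edgeR adjusted p from 0.35 for Aoah to 0.63 for Socs2). Without the second ethanol replicate at 3 h, Aoah was called (adjusted p = 0.012).

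**Figure D3:**
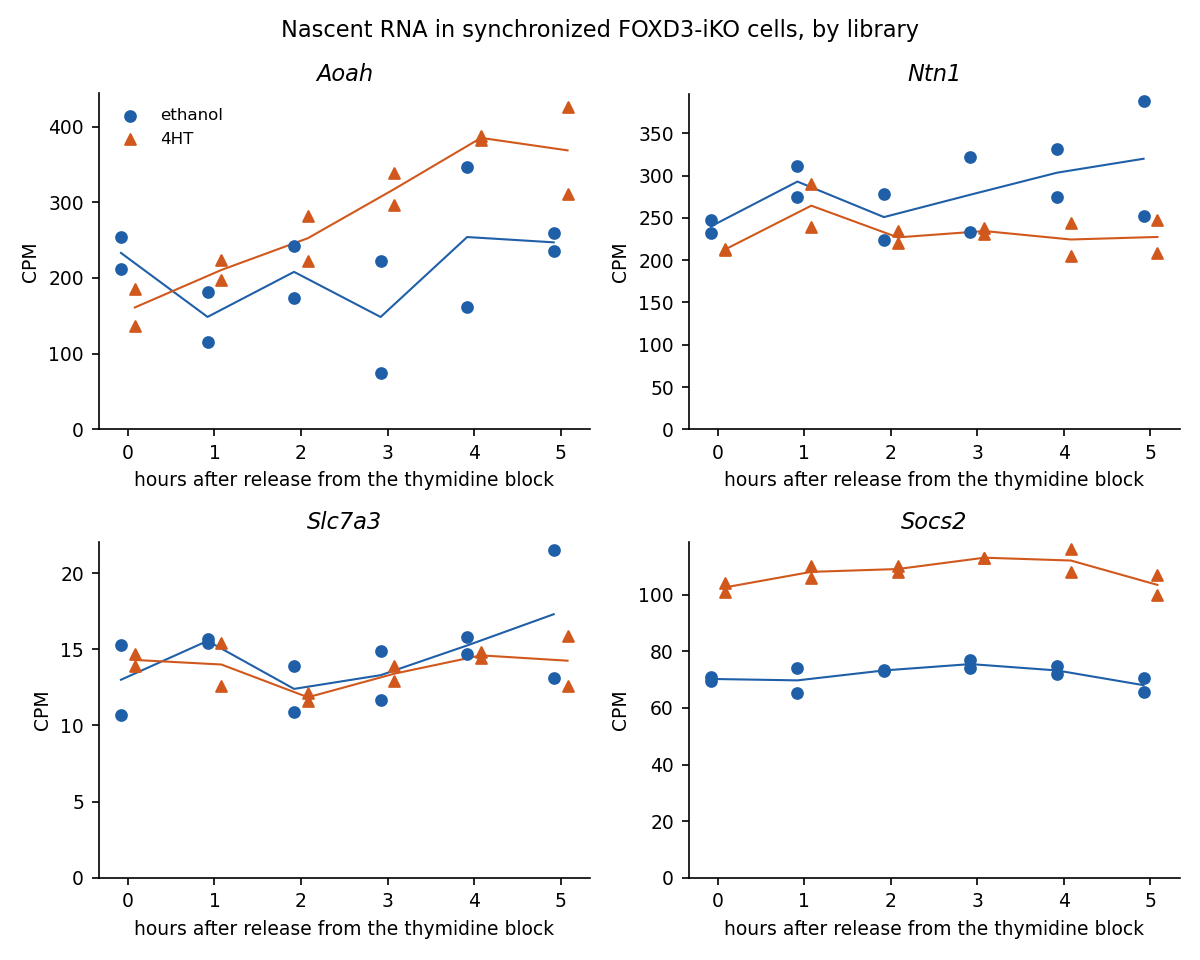
CPM of the 4 genes in each synchronized FOXD3-iKO library against hours after release, with ethanol (circles) and 4HT (triangles) and lines through the means of 2 libraries. The Socs2 arms do not overlap at any time (65.2 to 77 against 99.8 to 116 CPM), while the Aoah ethanol replicates lie far apart at 3 h, at 73.8 and 223 CPM.

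The FOXD3 response of synchronized cells, over all release times, was tested against that of cycling cells at 24 h. This used a joint fit of the 40 FOXD3-iKO libraries and was added after the values were seen. For Socs2 the synchronized response exceeded the cycling one by 0.42 ± 0.09 on the log2 scale, which did not pass the test (edgeR adjusted p = 0.052). DESeq2, RLE factors and a fit of the compared groups alone gave 0.43, 0.43 and 0.44 and called it (adjusted p of 0.00069, 0.043 and 0.044), and over all alternatives the adjusted p ran from 0.00069 to 0.53. The differences were 0.38 ± 0.21 for Ntn1, 0.21 ± 0.35 for Aoah and 0.11 ± 0.21 for Slc7a3, none called. In all, 0.232% of 18987 genes were called. Synchronized cells were released 24 h after treatment, so all but those collected at release had been treated for longer than the cycling cells. Synchronization, labelling time, time since treatment and experiment cannot be told apart here.

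Set beside each other, the responses to the 2 losses had unlike sizes. At 24 h the log2 difference of Aoah was -6.46 ± 0.14 after OCT4 loss and 0.21 ± 0.19 after FOXD3 loss in cycling cells. For Ntn1 the values were -3.47 ± 0.19 and -0.67 ± 0.17, for Slc7a3 -4.28 ± 0.20 and -0.20 ± 0.15, and for Socs2 -2.67 ± 0.10 and 0.16 ± 0.09. These differences were not tested, because the OCT4 values chose the members. The 2 losses also differ in line, inducer and experiment, which cannot be told apart in these values. Foxd3 itself had log2 differences of -1.93 ± 0.17 and -3.12 ± 0.20 after 16 and 24 h of OCT4 loss, whereas Pou5f1 was not called after FOXD3 loss at 32 h (-0.42 ± 0.13, edgeR adjusted p = 0.055).

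**Figure D4:**
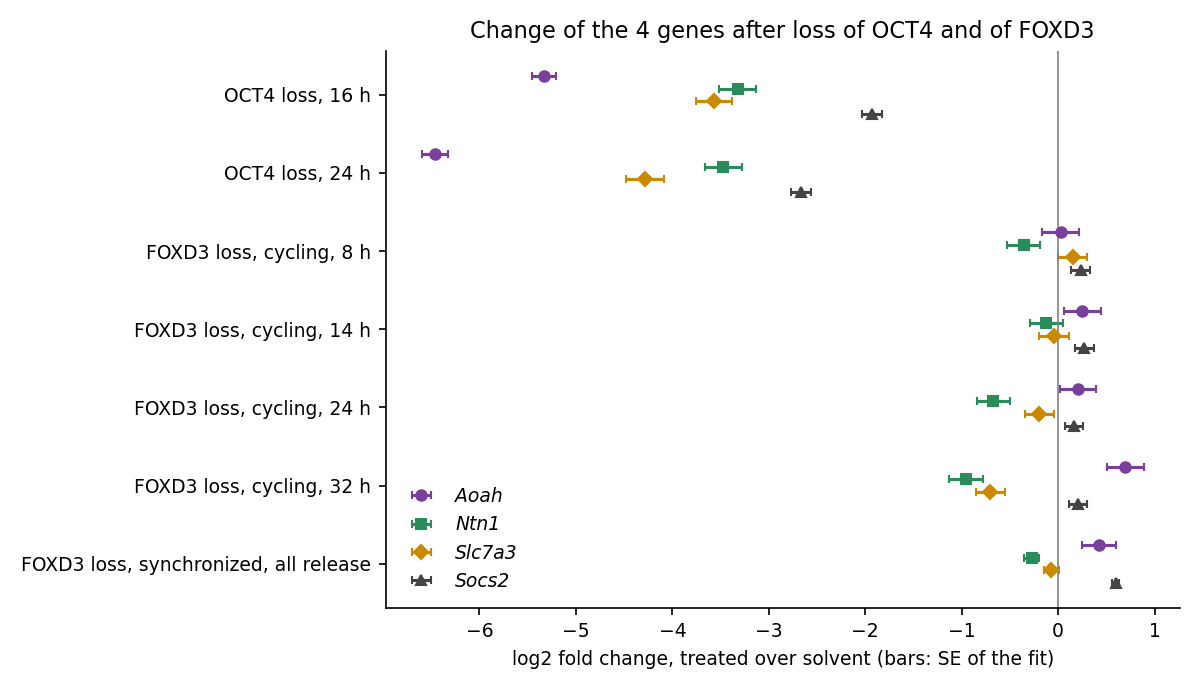
Log2 fold change of treated over solvent libraries (x axis) with SE bars for the 4 genes in 7 comparisons (y axis). After OCT4 loss all points lie at -1.93 or below, and after FOXD3 loss they lie between -0.96 and 0.70.

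Genes around the members gave different values. On chromosome 10 the 2 nearest tested genes beyond the start of Socs2 also fell after OCT4 loss. 5730420D15Rik, a transcript on the opposite strand that begins 0.195 kb away, fell by 2.11 ± 0.44 at 16 h and 2.34 ± 0.49 at 24 h (edgeR adjusted p = 0.011 and 0.0052), on at most 14 counts in a library. DESeq2 gave it an adjusted p of 0.09 at 16 h. Gm47599, 28.1 kb away, fell by 1.51 ± 0.15 and 1.82 ± 0.15 (adjusted p = 0.00017 and 2.6e-05). Both rose with FOXD3 loss in synchronized cells, by 0.74 and 0.35 (adjusted p = 0.0011 and 0.00015), as Socs2 did there. Gm47599 did not pass there with total counts alone (0.13, adjusted p = 0.24). At 32 h of FOXD3 loss in cycling cells Gm47599 rose (0.55 ± 0.11, adjusted p = 0.0054, and 0.095 with only the compared groups). Socs2 and 5730420D15Rik were not called at that time. On the far side, 2310039L15Rik fell at 24 h (-1.19 ± 0.39, adjusted p = 0.038; 0.057 with DESeq2 and 0.075 with only the compared groups) and Gm48882 was not called. In synchronized cells 2310039L15Rik fell with FOXD3 loss (-0.36 ± 0.12, adjusted p = 0.022), opposite to Socs2, and Gm48882 was not called (-0.47 ± 0.22). Whether counting used strand is not known here, and without it reads of genes on opposite strands cannot be told apart where they overlap.

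Around Aoah, Ntn1 and Slc7a3, 1 tested neighbour fell after OCT4 loss and several rose. Elmo1, an engulfment and cell motility adaptor 186 kb before Aoah, rose by 1.18 ± 0.23 and 1.63 ± 0.22 after OCT4 loss (edgeR adjusted p = 0.007 and 0.00052), and on the other side of Aoah Trim27 fell by 0.41 ± 0.11 at 24 h (adjusted p = 0.015), against a difference of -6.46 for Aoah, and Gm47806 was not called. Stx8, a syntaxin whose end lies 2.22 kb from that of Ntn1, was not called (0.14 ± 0.26 and 0.70 ± 0.25), nor were Cfap52 and Pik3r6, while Pik3r5 rose at 24 h (0.95 ± 0.19, adjusted p = 0.0038). Around Slc7a3, Tex11 and Snx12 were not called, Dlg3 rose by 0.36 ± 0.09 and 0.50 ± 0.09 (adjusted p = 0.024 and 0.0022), and Foxo4 rose at 24 h (0.63 ± 0.17, adjusted p = 0.018). Calls lost under another setting were those of Dlg3 at 16 h (0.074 with DESeq2, 0.054 with no filter), Trim27 (0.071 with total counts alone, 0.092 with only the compared groups) and Foxo4 (0.059 with total counts outside the ribosomal RNA genes). With FOXD3 loss in synchronized cells Stx8 and Snx12 rose (0.43 and 0.31, edgeR adjusted p = 2.9e-05 and 0.0035). Foxo4 and Trim27 fell (-0.49 and -0.225, adjusted p = 0.0014 and 0.001). Only Foxo4 was called at 32 h in cycling cells (-0.55, adjusted p = 0.013, and 0.34 with only the compared groups). Stx8 was not called with the length trend removed (0.084), nor Snx12 with total counts alone (0.24). Gm47727 and Gm25605 inside Aoah and Mir6406 and Gm12305 inside Ntn1 had 0 counts in every OCT4-tetOff library. How counting treated overlapping genes is not known here, so these zeros are not read as levels. No listed gene overlapped Slc7a3 or Socs2.

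Netrin receptor genes split after OCT4 loss, Unc5b rising and Unc5d falling. Of 14 tested genes of the netrin list other than Ntn1, 2 were called higher and 1 lower at 16 h of doxycycline. At 24 h 3 were higher and 3 lower. Over all genes tested, 7.94% were called higher and 8.91% lower at 16 h, and 18.1% and 18.7% at 24 h. The 24 h counts of this list lay near those shares. Its median log2 change was 0.008 at 16 h and -0.188 at 24 h, against -0.002 and -0.007 over all genes. Unc5b, a netrin receptor, went from 42.2 and 46.6 to 77.1 and 72.7 CPM at 16 h and from 35.9 and 40.5 to 86.8 and 95.2 CPM at 24 h, rises of 0.76 ± 0.10 and 1.25 ± 0.10 (edgeR adjusted p = 0.001 and 2.5e-05). Unc5d, a receptor gene of the same family, was not called at 16 h (-0.67 ± 0.26) and fell by 0.82 ± 0.20 at 24 h (adjusted p = 0.01; 0.058 with DESeq2). Neo1, which encodes neogenin, was not called (0.24 ± 0.18 and 0.32 ± 0.18), nor was Dcc, at 1.48 CPM or less, or the ligand gene Ntn3. The ligand gene Ntn4 stood at 0.869 and 1.26 CPM with water and 0.514 and 0.516 CPM with doxycycline at 24 h, a fall of 1.02 ± 0.31 (adjusted p = 0.027; 0.15 with DESeq2). Ntng2 fell by 1.68 at both times (adjusted p = 0.0058 and 0.0019) and Rgmb, a neogenin ligand, rose by 0.57 and 0.53.

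After FOXD3 loss at 32 h the netrin list gave 3 higher and 1 lower of 15 tested. The shares over all genes were 4.88% higher and 4.59% lower at 32 h, and 18.6% and 18.4% in synchronized cells. Ntn4 rose from 1.29 and 0.669 to 2.74 and 3.29 CPM (1.63 ± 0.24, edgeR adjusted p = 0.00085), opposite to Ntn1. Dscaml1 and Ntng2 rose as well (1.21 and 1.41). Fitting only the compared groups left 1 higher and 0 lower, and Ntn4, Ntng2 and Rgma were then not called (adjusted p of 0.066, 0.14 and 0.062). Rgma, another neogenin ligand, fell from 18.9 and 16.5 to 9.6 and 9.34 CPM (-0.90 ± 0.09, adjusted p = 4.7e-05), and it fell in synchronized cells too (-0.64 ± 0.05, adjusted p = 2.8e-08). Of 13 tested in synchronized cells, 3 rose and 2 fell, among them Dscam (0.86) and Draxin (-0.61), while the rise of Rgmb (0.14) turned to -0.07 with total counts alone.

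Cationic amino acid transporters split. Slc7a1, the family's widely expressed member, went from 178 and 201 CPM with water to 116 and 138 CPM with doxycycline at 24 h, a fall of 0.57 ± 0.12 (edgeR adjusted p = 0.0047) after 0.43 ± 0.12 at 16 h (adjusted p = 0.032, and 0.19 with total counts alone). Slc7a2 went from 3.71 and 4.3 to 6.14 and 7.45 CPM at 24 h, a rise of 0.76 ± 0.17 (adjusted p = 0.0072). FOXD3 loss at 32 h gave the same signs: Slc7a1 fell by 0.44 ± 0.10 (adjusted p = 0.015; 0.17 with total counts alone) and Slc7a2 rose by 0.45 ± 0.13 (adjusted p = 0.044). Fitting only the compared groups called neither (adjusted p of 0.4 for Slc7a1 and 0.23 for Slc7a2), nor did it call the fall of Slc7a1 after 24 h of doxycycline (0.055).

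Over the amino acid list, 3 of 27 tested genes were called higher and 5 lower at 16 h of doxycycline. At 24 h 6 were higher and 8 lower. The shares over all genes were 7.94% and 8.91% at 16 h and 18.1% and 18.7% at 24 h. The list's medians were -0.236 and -0.23. With total counts alone the 16 h split was 4 and 4, and the count of 8 fell to 3 or 4 when any library of that time was left out. The smallest p-values belonged to the neutral amino acid transporter gene Slc7a5 (-0.66 and -0.84), to Ass1, of arginine synthesis (-0.60 and -0.61), to Sms, of polyamine synthesis (-0.68 and -0.56), and to the cystine transporter gene Slc7a11 (1.41 and 2.43). Slc7a9 fell at 24 h (-1.99 ± 0.31, edgeR adjusted p = 0.0011) but rose after FOXD3 loss, by 1.06 ± 0.15 at 32 h in cycling cells (adjusted p = 0.00081) and by 1.34 ± 0.08 in synchronized cells (adjusted p = 2.1e-10). At 32 h of 4HT, 5 of 26 were higher and 3 lower (4 to 13 called when 1 library was left out), led by Azin2, an antizyme inhibitor gene (38.1 and 45.2 against 79 and 78.5 CPM, 0.92 ± 0.10). Fitting only the compared groups left 1 higher and 0 lower at 32 h, without Slc7a9 (adjusted p = 0.059), and total counts alone gave 5 higher and 1 lower. In synchronized cells 6 of 25 were higher and 6 lower, against 4 and 9 with total counts alone. The shares over all genes were 4.88% higher and 4.59% lower at 32 h, and 18.6% and 18.4% in synchronized cells.

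Other SOCS genes did not follow Socs2. Socs3, the feedback inhibitor of LIF signalling, went from 21.5 and 33.5 CPM with water to 64.1 and 48.1 CPM with doxycycline at 16 h and from 7.78 and 7.2 to 24 and 14.4 CPM at 24 h, rises of 1.03 ± 0.26 and 1.35 ± 0.28 (edgeR adjusted p = 0.023 and 0.0055). Socs1 and Cish were not called (0.74 ± 0.36 and -0.19 ± 0.27 at 16 h). Ghr, the growth hormone receptor gene, went from 2.13 and 3.18 to 14.4 and 16.8 CPM at 24 h, a rise of 2.56 ± 0.20 (adjusted p = 1.7e-05). Stat5a, a mediator of that receptor, fell by 1.21 and 1.35 (adjusted p = 0.0083 and 0.0027).

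Of 24 tested genes of the SOCS and LIF list other than Socs2, 2 were higher and 1 lower at 16 h. At 24 h 5 were higher and 2 lower. The shares over all genes were 7.94% and 8.91% at 16 h and 18.1% and 18.7% at 24 h. The list's medians were 0.115 and 0.125. Leaving out 1 library took the 16 h count of 3 to between 0 and 2. Among receptor genes, Il6st, which encodes gp130, fell by 0.51 ± 0.10 at 24 h (edgeR adjusted p = 0.0034) and Lifr was not called (0.32 and 0.16), while Stat3 rose by 0.53 ± 0.12 at 24 h (adjusted p = 0.0094). Fitting only the compared groups, neither was called (0.061 and 0.053). After 32 h of 4HT, Lif rose by 0.63 ± 0.13 (adjusted p = 0.0068) and Il6st fell by 0.39 ± 0.12 (adjusted p = 0.049; 0.31 with total counts alone), the 2 called of 24 (0 to 7 with 1 library left out, 0 with only the compared groups, and 2 higher and 0 lower with total counts alone). In synchronized cells 7 were higher and 4 lower, a split that turned to 2 and 9 with total counts alone. The shares over all genes were 4.88% higher and 4.59% lower at 32 h, and 18.6% and 18.4% in synchronized cells. Igf1r (0.41), Ptpn11 (0.33), Lifr (-0.18) and Jak3 (0.53) had the smallest p-values there, and Socs1 fell by 0.58 ± 0.19 (adjusted p = 0.023). Removing the length trend gave 0.16 for Igf1r (adjusted p = 0.2) and -0.4 for Socs1 (0.12), and total counts alone gave 0.13 for Ptpn11 (0.055).

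Aoah is otherwise known from phagocytes, and most markers of those cells were at 3 counts or fewer. Of the 12, 3 to 5 were above 3 counts in a group of OCT4-tetOff libraries. The macrophage and neutrophil markers summed to between 9.48 and 11.8 CPM in OCT4-tetOff libraries, against 46.6 to 50.1 CPM for Aoah alone with water. These values are not scaled for gene length. Aoah spans 243 kb and was at only 0.192 CPM per kb with water at 16 h, so the sums and its level are not directly comparable. Itgam, S100a8 and S100a9 were at 0 in all OCT4-tetOff libraries. The 2 markers tested, Cd68 and Spi1, named here after their values were seen, were not called at either time. In synchronized cells the sum was between 5.3 and 13.3 CPM.

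Other genes of lipopolysaccharide recognition and handling also gave mixed values. Of 13 tested, 2 were higher and 2 lower at 16 h and 3 higher and 1 lower at 24 h of doxycycline. The shares over all genes were 7.94% and 8.91% at 16 h and 18.1% and 18.7% at 24 h. The list's medians were -0.008 and 0.24. The 16 h count of 4 was 2 or 3 with 1 library left out. Ly96, the co-receptor of TLR4, went from 2.53 and 2.31 to 5.22 and 6.56 CPM at 16 h and from 3.08 and 2.85 to 8.02 and 7.78 CPM at 24 h, rises of 1.28 ± 0.18 and 1.41 ± 0.16 (edgeR adjusted p = 0.001 and 0.00018). Tlr4, the receptor, fell by 0.79 ± 0.17 at 16 h (adjusted p = 0.013) and was not called at 24 h (-0.27 ± 0.17). Alpl, a phosphatase, fell by 0.86 and 0.83, Tirap, an adaptor, rose by 0.41 (adjusted p = 0.021; 0.059 with DESeq2 and 0.066 with total counts outside the ribosomal RNA genes) and 0.54, and Cd14 had at most 10 counts in any library. No gene of the list was called at 32 h of 4HT, and in synchronized cells Nfkb1 and Alpl were higher and Irak4 lower, of 10 tested. With total counts alone that split turned to 1 higher and 4 lower, and Alpl was not called (0.09, adjusted p = 0.31). The shares over all genes in synchronized cells were 18.6% higher and 18.4% lower.

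The members fell amid a wider loss of pluripotency RNA. Of 20 tested genes of the core and naive list, 17 were lower and 0 higher at 16 h of doxycycline. At 24 h 18 were lower and 0 higher, and the medians were -1.09 and -1.64. Over all genes tested, 8.91% were called lower and 7.94% higher at 16 h, and 18.7% and 18.1% at 24 h. Leaving out 1 library of the time left 11 to 14 called at 16 h. The log2 changes at 16 and 24 h were -2.93 and -4.09 for Tcl1, -2.81 and -4.36 for Utf1, -1.87 and -1.45 for Tfcp2l1 and -1.58 and -1.73 for Klf5. Summed primitive endoderm markers went from 190 to 224 CPM with water to 250 to 283 CPM with doxycycline at 24 h, where 6 of 8 tested rose, including Gata6 (2.48 at 16 h and 4.10 at 24 h), and 1 fell. Of 11 tested trophectoderm markers, 4 rose, among them Gata3 (1.55 and 2.32) and Krt7 (3.32 and 3.79), and 2 fell, at both times, and the list's sum was 163 to 175 CPM with water and 182 to 200 CPM with doxycycline at 24 h. Of 4 tested fibroblast markers, 2 rose, Pdgfrb (0.86 and 0.83) and Thy1 (1.40 and 0.93), and the list's sum was 16 to 16.7 CPM with water and 26.9 to 29.1 CPM with doxycycline at 24 h. Lum and S100a4 were at 0 in the doxycycline libraries of both times. The part of these marker changes in the members' falls was not tested.

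At 32 h of 4HT, when Aoah rose, 5 of 8 primitive endoderm markers rose (list sum 142 to 164 CPM with ethanol and 221 to 228 CPM with 4HT), 2 of 11 trophectoderm markers rose, and 4 of 21 pluripotency genes fell (Nr0b1, Tcl1, Fgf4 and Utf1, by 0.48 to 0.70). Leaving out 1 library of that time gave 0 to 12 called pluripotency genes. With total counts alone, 1 pluripotency gene was called lower and 1 higher. Fitting only the compared groups called 2 primitive endoderm markers higher and no trophectoderm marker or pluripotency gene. With total counts outside the ribosomal RNA genes, 1 trophectoderm marker was called higher, 1 lower, and no pluripotency gene was called. The trophectoderm list had a median of -0.347, against -0.05 over all genes, of which 4.88% were called higher and 4.59% lower. The part of the marker changes in the members' responses was not tested. In synchronized cells 5 pluripotency genes were higher and 3 lower, against 1 and 9 with total counts alone. Over all genes, 18.6% were called higher and 18.4% lower there.

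Across the 48 libraries, each table centred on its own mean, the genes closest to the members in log2 CPM were drawn from 10983 genes by Pearson r, and these correlations share the OCT4 contrast that chose the members. For Aoah they were Jam2 (0.96), Syndig1 (0.951) and Hcrtr2 (0.949). For Ntn1 they were Pla2g4e (0.95), Sema5b (0.931) and Gpa33 (0.929), for Slc7a3 L1td1 (0.948), Epha2 (0.944) and Zfp42 (0.942), and for Socs2 Mybl2 (0.916), Aoah itself (0.907) and Pecam1 (0.906). Within the 24 synchronized libraries r with Aoah was 0.967 for Syndig1, while the 3 genes found for Slc7a3 had r of 0.078 to 0.222. Between members, r lay between 0.954 and 0.993 over the 8 OCT4-tetOff libraries. Over the 16 cycling FOXD3-iKO libraries it was 0.882 for Aoah and Socs2, 0.661 for Ntn1 and Slc7a3 and 0.09 to 0.295 for the other 4 pairs, and over the 24 synchronized libraries it ran from -0.554 for Ntn1 and Socs2 to 0.486 for Ntn1 and Slc7a3.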

How the data were processed

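4SU-labelled RNA was extracted with Trizol LS and made into libraries with KAPA RNA HyperPrep, per the labels' protocols. The authors deposited raw counts, 1 whole number for each gene and library. STAR, featureCounts and the mm10 build are named in the submitters' processing notes, without versions. In all 54752 genes the listed length is end minus start plus 1, so intron reads are included. Groups came from sample titles, and all 48 libraries were kept.

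Each of the 3 count tables was analysed in full by the quasi-likelihood test of edgeR 4.0.16 (R 4.3.3), with TMM scaling, a mean for every group and filterByExpr at a minimum count of 10. Called means an adjusted p (Benjamini-Hochberg, all tested genes) below 0.05. The synchronized effect over all release times had time as covariate. The SE of a log2 change was derived from its F value. A floor of 3 counts equals 0.101 to 0.386 CPM, for counting error only. Promoters are from RefSeq (GRCm38.p6), where 1 of the 4 members matched.

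Members and gene lists were chosen with earlier results of these data known, and the comparison of synchronized with cycling cells was added after the values were seen. Named were the members, Pou5f1, Foxd3, a fixed set of family genes, the 2 nearest tested genes on each side within 500 kb, genes overlapping a member, 3 genes by likeness per member, ranks up to 5, and up to 4 called genes of a list per comparison by smallest p. Alternatives were DESeq2 1.42.0, RLE factors, total counts with and without 2 ribosomal RNA genes, no filter, only the compared groups, a replicate block, removal of a length trend, and leaving out each library in turn.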

Additional observations from a re-analysis of the deposited data

How the results depend on the processing

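Of the members' FOXD3 and release results, 421 kept direction and side of the threshold with 1 library left out, 12 came to pass it, 5 no longer passed and 10 changed sign; over other settings these numbers were 251, 20, 4 and 5. The fall of Ntn1 and the rise of Socs2 in synchronized cells held in all 31 alternatives run for each. Where a result changed, the cause was not tested.

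With DESeq2, 5, 155, 12 and 136 genes were called at 14 h, at 24 h, for 32 minus 24 h and for synchronized minus cycling cells. Ntn1 at 24 h (-0.66), Aoah in synchronized cells (0.44) and Socs2 for synchronized minus cycling (0.43) then passed, and RLE factors also gave Socs2 0.43 there. With total counts alone, release called 1779 genes and synchronized minus cycling 96. Socs2 passed at 32 h (0.38), Slc7a3 passed in synchronized cells (-0.26), and for synchronized minus cycling Aoah was -0.03 and Slc7a3 -0.11. After OCT4 loss at 16 h Aoah was then -5.18, Ntn1 -3.17 and Socs2 -1.77. Scaling by total counts without the ribosomal RNA genes Gm26917 and Gm42418 gave 0, 46, 1091 and 29 called genes at 8, 24 and 32 h and for synchronized minus cycling. Ntn1 passed at 24 h (-0.63), Slc7a3 passed in synchronized cells (-0.23) and did not at 32 h (-0.7), and its synchronized minus cycling value was -0.07. Without the count filter, 15, 285, 77, 1738, 5952 and 399 genes were called at 14 h, at 24 h, for 32 minus 24 h, for responses differing between release times, for release and for synchronized minus cycling. Ntn1 passed at 24 h (-0.65), as did Aoah in synchronized cells (0.41), between release times (adjusted p = 1.3e-08) and for release (2.3e-06). Fitting only the compared groups called 76, 254 and 194 genes at 8, 24 and 32 h, 754 for release, and 6506 and 4215 after OCT4 loss at 16 and 24 h. Ntn1 then passed at 8 h (-0.36) and 24 h (-0.66) and Socs2 for synchronized minus cycling (0.44), while at 32 h Aoah (0.77), Ntn1 (-0.88) and Slc7a3 (-0.64) did not. That setting was not run for the synchronized comparisons over all groups. Removing the length trend called 6, 362, 36, 77 and 5297 genes at 14 h, at 24 h, for 32 minus 24 h, for synchronized minus cycling and at 16 h after OCT4 loss. Aoah (0.3) and Ntn1 (-0.59) passed at 24 h and Socs2 for synchronized minus cycling (0.42). Slc7a3 in synchronized cells was 0.07, Aoah for synchronized minus cycling -0.08 and Aoah after 24 h of OCT4 loss -6.77.

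Replicate numbers were not taken to pair the samples: the labels do not tie them, and deviations of same-numbered libraries correlated from -0.33 to 0.78, and from 0.008 to 0.522 in synchronized cells, not all above 0.1. With the replicate block, 6298 genes were called for release, Aoah passed in synchronized cells (0.45) and Socs2 passed for synchronized minus cycling (0.42).

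Leaving out 1 library called 0 to 1 genes at 8 h, 0 to 2 at 14 h, 2 to 14 at 24 h, 597 to 4370 at 32 h, 0 to 681 for 32 minus 24 h, 0 to 89 for synchronized minus cycling and 1289 to 7673 for release. After OCT4 loss it called 1327 to 1429 at 16 h and 3969 to 7851 at 24 h. Aoah ranged from -0.01 to 0.06 at 8 h, from 0.35 to 1.16 at 32 h, from 0.14 to 0.96 for 32 minus 24 h, from 0.32 to 0.51 in synchronized cells, and in adjusted p from 0.012 to 0.56 for release. Ntn1 ranged from -0.34 to 0.06 at 14 h and from -0.56 to 0.05 for 32 minus 24 h. Slc7a3 ranged from -0.06 to 0.34 at 8 h, from -0.21 to 0.08 at 14 h, from -0.89 to -0.5 at 32 h and from 0 to 0.17 for synchronized minus cycling. Socs2 ranged from 0.09 to 0.32 at 32 h, from -0.07 to 0.16 for 32 minus 24 h and from 0.36 to 0.44 for synchronized minus cycling. A group left with 1 library is assumed to vary like the others.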

Other observations

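Sox2 was listed at 0 in every library of all 3 tables. In RefSeq (GRCm38.p6) the gene lies inside Sox2ot, and these zeros are not read as a level.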
